A study of Caenorhabditis elegans with 24 samples.

Results

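The 10 genes described here encode cuticle collagens whose mutants change the shape of the nematode Caenorhabditis elegans or raise blisters on its surface. They are dpy-4, dpy-5, dpy-13, dpy-14, dpy-17, sqt-3, rol-6, lon-3, bli-1 and bli-2, and they were taken by name from a table of 46739 features. All 10 were listed. They were chosen to lie outside the group of 6 collagens that build the annular furrows (dpy-2, dpy-3, dpy-7, dpy-8, dpy-9 and dpy-10), the circumferential grooves of the cuticle, whose values are given only for comparison. The study measured poly(A) RNA of whole worms after blunt force trauma to ask how gene expression changed with time after injury. Worms labelled wild type, strain N2, were kept at 25 °C with RNA interference of the phosphatase gene cdc-25.1, which germ cells need to divide, and all groups including the controls carried this treatment. Day 1 adults were injured by agitation at 8600 rpm for 16 s or were handled without agitation as controls, and RNA was taken after 8, 48 and 96 h, in 6 groups with 4 libraries each. The columns of the table name the group but not the replicate, so the library numbers 1 to 4 used below are the order of columns within a group and pair nothing. Legends of the study call the replicates independent, but neither they nor the labels say what was kept separate, so each p-value speaks only for the spread among these libraries.

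The cuticle of C. elegans is a collagen matrix that the epidermis secretes and replaces at each of the larval moults. Each collagen is made as a procollagen, hydroxylated and folded into triple helices, cut by proteases, exported and then crosslinked outside the cell. Collagen genes are switched on in waves during each moulting cycle, the adult no longer moults, and loss of a single collagen can leave a worm short and fat (Dpy, dumpy), long (Lon), rolling about its axis (Rol), squat (Sqt) or blistered (Bli). Whole worms were measured, so fewer cells of a type and less RNA per cell cannot be told apart. The wild-type body holds the epidermis, and epidermal markers were present in all libraries, the 8 genes of that list summing to between 156 and 807 RPKM.

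RPKM divides the reads of a gene by the kilobases of its exons and by the mapped reads of the library, and so allows levels of different genes to be compared. The depth could be read from the steps of low values in 23 of the 24 libraries and ran from 19750000 to 30212500 reads. Ribosomal RNA took over 5% of the summed signal in 4 libraries, namely injured 8 h library 2 (5.17%), injured 8 h library 4 (7.87%), control 48 h library 2 (8.35%) and control 48 h library 4 (46.1%), and between 0.878% and 3.08% in the other 20. As RPKM shares out a fixed total, every other gene reads low in control 48 h library 4, whose median-of-ratios factor was -1.04 on the log2 scale. Differences were tested with limma on log2(RPKM + 0.5) over the 14813 features that reached 1 RPKM in at least 4 libraries, and a gene was called at an adjusted p below 0.05. Of the 10 genes, 8 passed that filter, and bli-1 and bli-2 did not.

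A pair of patterns over time could be seen, and the genes are taken in that order, which was chosen after their values were known. The transcripts of dpy-14, dpy-17 and sqt-3 were abundant at 8 h, where sqt-3 alone was called higher in injured worms, and they were lower at 48 and 96 h. At these later times injured worms were called lower than controls for dpy-14 and sqt-3 at both and for dpy-17 at 48 h alone. The other 7 genes were near 0 in the 8 h controls and were highest in the controls at 48 h, above all in library 1 of that group. The plot of every library shows both patterns.

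**Figure D1:**
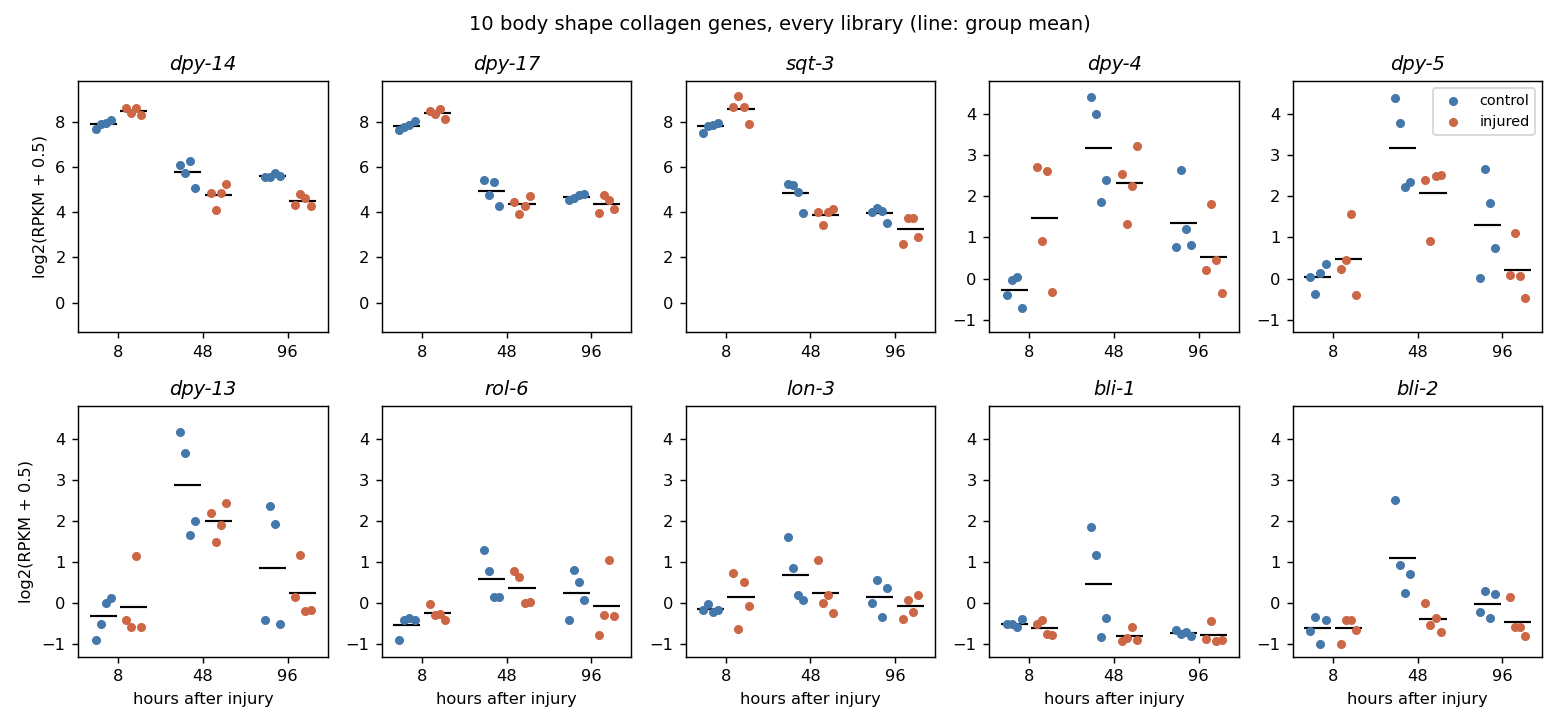
Level of each of the 10 genes as log2(RPKM + 0.5) against hours after injury (8, 48, 96) in control (blue) and injured (orange) libraries. Points are single libraries, lines are means of 4, and the first 3 panels have a taller axis. dpy-14, dpy-17 and sqt-3 are high at 8 h, and control 48 h library 1 is the highest point of each of the other 7 panels.

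dpy-14 (chromosome I, 6843589 to 6845142, plus strand, assembly WBcel235, 4 exon blocks) encodes a cuticle collagen needed for normal body length. At 8 h the controls held 202, 237, 244 and 272 RPKM, and the injured libraries held 386, 337, 391 and 318 RPKM. At 48 h it was 67.9, 52.8, 77.5 and 32.9 in controls and 28.7, 16.5, 28.3 and 37.2 in injured worms. At 96 h the controls held 46.2, 46.8, 52.4 and 48.8 RPKM and the injured worms 19.6, 27.5, 24.3 and 18.7. The groups did not overlap at 8 h, where injured worms were higher, nor at 96 h, where they were lower, and at 48 h they overlapped through control library 4, the one rich in ribosomal RNA, and injured library 4. The share of all features without such overlap was not counted, here or for the genes below.

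In limma the injured minus control difference of dpy-14 was 0.59 ± 0.22 (log2, SE) at 8 h with an adjusted p = 0.055, which missed the threshold. It was -1.04 ± 0.22 at 48 h (adjusted p = 0.00017) and -1.11 ± 0.22 at 96 h (adjusted p = 6.4e-05). The calls at 48 and 96 h were kept under all 33 alternatives tried. The change in the injury effect itself, from 8 to 48 h, was -1.62 ± 0.32 (adjusted p = 0.00017) and from 8 to 96 h -1.69 ± 0.32 (adjusted p = 6.9e-05), both also kept throughout. Between 48 and 96 h the injury effect differed by -0.07 with a 95% interval from -0.71 to 0.57.

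dpy-17 (chromosome III, 5107330 to 5108492, plus strand, 2 exon blocks) encodes a collagen that SQT-3 needs in order to leave the cell, and its loss makes worms dumpy. At 8 h the controls held 196, 218, 230 and 265 RPKM and the injured worms 356, 319, 373 and 280 RPKM. At 48 h the values were 42.1, 26.5, 40.4 and 18.8 RPKM in controls and 21.2, 14.8, 19.01 and 25.8 RPKM in injured worms. At 96 h they were 22.9, 24.3, 26.3 and 27.9 RPKM in controls and 15.1, 27.03, 22.7 and 17.3 RPKM in injured worms. Injured libraries were above all controls at 8 h, and the groups overlapped at both later times.

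For dpy-17 the 8 h difference was 0.54 ± 0.22 (log2, SE; limma adjusted p = 0.074), short of the threshold. At 48 h it was -0.60 ± 0.22 (limma adjusted p = 0.020), a call lost without control library 1 or 3 or injured library 2 of that time (adjusted p from 0.081 to 0.096). At 96 h the difference was -0.33 ± 0.22 (limma adjusted p = 0.20) with an interval from -0.78 to 0.12. The injury effect fell by 1.15 from 8 to 48 h (limma adjusted p = 0.0043), and by 0.87 from 8 to 96 h (limma adjusted p = 0.023), the latter lost without injured 96 h library 1 or 4 (adjusted p from 0.051 to 0.065).

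sqt-3 (chromosome V, 12352745 to 12354320, plus strand, 3 exon blocks, also known as col-1) encodes a collagen whose alleles give dumpy, squat or rolling worms. An antisense non-coding gene, F23H12.13, shares 144 exon bases with it and was listed at 0 in all libraries. At 8 h the controls held 183, 227, 232 and 250 RPKM of sqt-3 and the injured worms 397, 570, 402 and 236. At 48 h these were 37.9, 36.6, 29.4 and 15.1 RPKM against 15.5, 10.2, 15.5 and 17.04. At 96 h they were 15.7, 17.6, 16.4 and 10.9 RPKM in controls against 5.61, 12.9, 12.9 and 6.90 in injured worms. The groups overlapped at each time, at 8 h through injured library 4 alone and at 48 h through control library 4 alone, the one rich in ribosomal RNA. The highest value of any of the 10 genes was that of sqt-3 in injured 8 h library 2, a library with 5.17% ribosomal RNA.

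sqt-3 was the only one of the 8 genes tested that was called at 8 h, at 0.79 ± 0.28 (log2, SE; limma adjusted p = 0.038), against 11% of all features called higher. This call was lost without control library 1, 2 or 3 or injured library 1, 2 or 3 of that time (adjusted p from 0.062 to 0.15, with differences from 0.60 to 0.81). At 48 h sqt-3 differed by -0.95 ± 0.28 (limma adjusted p = 0.0045) and at 96 h by -0.70 ± 0.28 (limma adjusted p = 0.030), and the 96 h call was lost without control library 1, 2 or 3 or injured library 1 or 4 (adjusted p from 0.060 to 0.14). The change of its injury effect was -1.73 ± 0.39 from 8 to 48 h (limma adjusted p = 0.0010) and -1.49 ± 0.39 from 8 to 96 h (limma adjusted p = 0.0031).

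Counted over the list, 1 of 8 tested genes was called higher and 0 lower at 8 h, where 11.4% of all features were called lower. At 48 h 0 were higher and 3 lower (dpy-14, dpy-17 and sqt-3), beside 45.8% and 10.2% of all features, and at 96 h 0 were higher and 2 lower (dpy-14 and sqt-3), beside 32.8% and 28.4%. For the 8 genes the median log2 difference was 0.49, -0.85 and -0.65 at the 3 times, beside -0.02, 0.48 and 0.07 over all features. The median over all features at 48 h moved to 0.01 when libraries were scaled by median of ratios, with 30% of features higher and 28.6% lower, and the median of the 8 genes then stood at -1.34 with 6 of them called lower. Beyond dpy-14, dpy-17 and sqt-3 these were dpy-5, dpy-13 and lon-3 (limma adjusted p of 0.011, 0.047 and 0.033). With that scaling, under which 20.8% of all features were called higher at 8 h, 4 genes were called higher there, namely dpy-14, dpy-17, sqt-3 and dpy-4 (limma adjusted p of 0.0061, 0.010, 0.023 and 0.024), and the same number was called without the 4 libraries rich in ribosomal RNA.

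The change of the injury effect from 8 to 48 h was called lower for 4 of the 8 genes, dpy-4, dpy-14, dpy-17 and sqt-3, beside 5.29% of all features called lower and 31.6% higher (22.4% and 19.6% with median-of-ratios scaling). From 8 to 96 h the same 4 genes were called lower, beside 20.1% of features lower and 23.6% higher. From 48 to 96 h 0 of 8 were called in limma and 0 at an unadjusted p below 0.05, beside 14.3% of features lower and 0.662% higher, though 1 was called with median-of-ratios scaling, dpy-17 at 0.76 (limma adjusted p = 0.047).

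**Figure D2:**
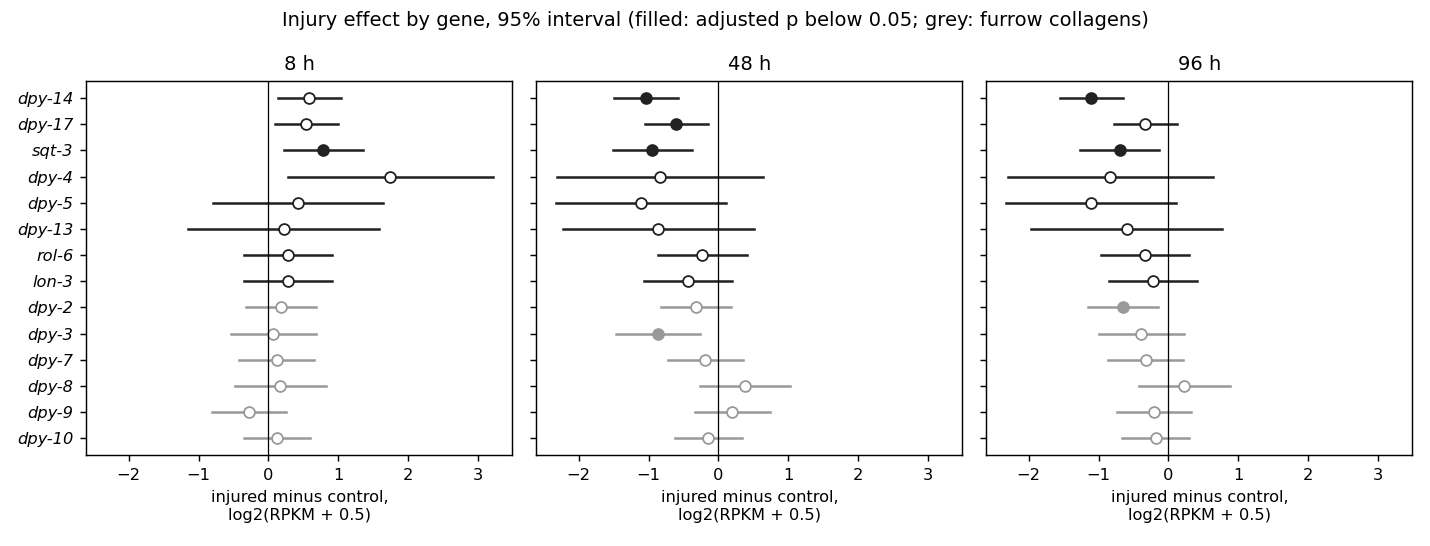
Injured minus control difference in log2(RPKM + 0.5) with its 95% interval from limma, for the 8 tested genes (black) and the 6 furrow collagens (grey) at 8, 48 and 96 h. Filled points passed an adjusted p of 0.05: sqt-3 at 8 h, dpy-14, dpy-17, sqt-3 and the furrow collagen dpy-3 at 48 h, and dpy-14, sqt-3 and dpy-2 at 96 h.

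The 7 other genes lay at or below 21.0 RPKM in all libraries. dpy-4 (chromosome IV, 14985543 to 14986784, minus strand, 3 exon blocks) is a collagen gene with dumpy mutants. It was at 0.26, 0.48, 0.53 and 0.11 RPKM in the 8 h controls and at 6.05, 1.37, 5.59 and 0.30 in the injured libraries of that time. In the 48 h controls it was at 21.0, 15.5, 3.11 and 4.8 RPKM, in the injured at 5.35, 2.01, 4.25 and 8.76. Libraries 1 and 3 of the injured 8 h group stood more than 5 RPKM above all controls of that time, while library 4 was among them. The 48 h controls fell into 2 high and 2 lower libraries, the latter including library 4, rich in ribosomal RNA. With median-of-ratios scaling control 48 h libraries 1 to 4 stood at 19.8, 17.6, 2.69 and 9.90.

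For dpy-4 the 8 h difference was 1.75 ± 0.70 (log2, SE; limma adjusted p = 0.085) and was not called. The 48 h difference was -0.84 ± 0.70 (limma adjusted p = 0.32) and was not called either. At 96 h, where controls held 1.21, 5.76, 1.82 and 1.25 RPKM and injured worms 0.65, 3.03, 0.87 and 0.28, it was -0.83 ± 0.70 (limma adjusted p = 0.32). Its injury effect was lower at 48 than at 8 h by -2.58 ± 0.99 (limma adjusted p = 0.048) and at 96 than at 8 h by -2.58 ± 0.99 (limma adjusted p = 0.042). Neither of these calls was firm, since 17 and 12 of the 24 single libraries, when left out, ended them (adjusted p up to 0.10 and 0.095).

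dpy-5 (chromosome I, 5432197 to 5433051, minus strand, 1 exon block) encodes a procollagen cut by the convertase BLI-4, and its loss makes worms dumpy. Its values in the 8 h controls were 0.53, 0.27, 0.60 and 0.77 RPKM, and in the 8 h injured libraries 0.67, 0.88, 2.46 and 0.26 RPKM. At 48 h they were 20.4, 13.3, 4.17 and 4.56 RPKM in the controls and 4.76, 1.38, 5.10 and 5.22 RPKM in the injured. At 96 h the controls held 0.51, 5.80, 3.05 and 1.17 RPKM and the injured worms 0.56, 1.67, 0.55 and 0.22 RPKM. The groups overlapped at each time, and the differences of 0.43, -1.11 and -1.11 (log2, SE 0.58; limma adjusted p of 0.68, 0.11 and 0.11) did not pass. Scaled by median of ratios, the 48 h difference of dpy-5 was -1.59 and was called (limma adjusted p = 0.011).

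dpy-13 (chromosome IV, 4235614 to 4236710, plus strand, 3 exon blocks), a further collagen gene with dumpy mutants, ran close to dpy-5. Its values were 0.04, 0.20, 0.50 and 0.59 RPKM in 8 h controls and 17.5, 11.96, 2.66 and 3.51 RPKM in 48 h controls. In injured worms they were 0.26, 0.17, 1.72 and 0.17 RPKM at 8 h and 4.06, 2.32, 3.24 and 4.95 RPKM at 48 h. As for dpy-4 and dpy-5, the first and second 48 h controls were the 2 highest of all 24 libraries. The injury differences of dpy-13 were 0.22, -0.86 and -0.60 (log2, SE 0.65; limma adjusted p of 0.87, 0.27 and 0.44). Scaled by median of ratios, the 48 h difference was -1.35 and was called (limma adjusted p = 0.047).

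rol-6 (chromosome II, 8733050 to 8734239, plus strand, 3 exon blocks), whose gain-of-function allele makes worms roll and serves as a marker of transgenic animals, lay between 0.04 and 1.96 RPKM. These values rest on 1.01 to 44.9 reads a library with a median of 12.2. The 48 h controls held 1.96, 1.22, 0.61 and 0.61 RPKM and the injured worms 1.21, 1.06, 0.51 and 0.53 RPKM, which overlapped. Its injury differences of 0.28, -0.23 and -0.33 (log2, SE 0.31) did not pass (limma adjusted p of 0.60, 0.56 and 0.36).

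lon-3 (chromosome V, 12197437 to 12198645, minus strand, 2 exon blocks) encodes a collagen whose loss gives long worms and whose excess gives dumpy ones. It lay between 0.15 and 2.57 RPKM, from 4.04 to 60.8 reads a library. In 48 h controls it was at 2.57, 1.32, 0.64 and 0.56 RPKM and in injured worms at 1.56, 0.50, 0.64 and 0.35 RPKM. The ranges overlapped, and the injury differences of 0.28, -0.44 and -0.22 (log2, SE 0.31; limma adjusted p of 0.59, 0.23 and 0.55) did not pass. Scaled by median of ratios, the 48 h difference of lon-3 was -0.76 and was called (limma adjusted p = 0.033).

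bli-1 and bli-2 encode the collagens of the struts that join the layers of the adult cuticle, and their loss lets the layers part into fluid-filled blisters. bli-2 (chromosome II, 5651394 to 5652434, minus strand, 2 exon blocks) was at 5.18, 1.41, 0.69 and 1.14 RPKM in the 48 h controls and at 0.51, 0.19, 0.28 and 0.12 RPKM in the injured worms of that time. bli-1 (chromosome II, 10708960 to 10712156, plus strand, 5 exon blocks) was at 3.09, 1.76, 0.07 and 0.28 RPKM in those controls and at 0.03, 0.06, 0.17 and 0.04 RPKM in the injured. All 4 controls of bli-2 were above all 4 injured libraries, whereas for bli-1 control library 3 lay among the injured.

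As both genes were under the filter, they were compared with an exact two-sided permutation test of 4 against 4 libraries, in 6 tests, where the smallest p possible is 0.0286. At 48 h the difference for bli-2 was -1.49 (log2) with an exact p = 0.0286, and for bli-1 -1.27 with an exact p = 0.0571. These p-values are not adjusted for the 6 tests. The other 4 tests gave differences from -0.44 to -0.01 with exact p from 0.143 to 1. Elsewhere both genes lay between 0 and 0.73 RPKM, and bli-2 was listed at 0 in control 8 h library 3 and injured 8 h library 1. In a limma fit with no filter both were called at 48 h (adjusted p = 0.00051 for bli-2 and 0.0033 for bli-1). bli-1 shares 7 exon bases with dph-2 on the other strand, a gene at 3.15 to 6.97 RPKM in 48 h controls and 11.6 to 18.6 in injured worms, and as the strand setting is not stated their reads there cannot be told apart.

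The controls alone show how the 10 genes moved as the adults aged. From 8 to 48 h all 8 tested genes were called in limma, 3 lower and 5 higher, beside 30% and 18.8% of all features (29.7% and 33% with median-of-ratios scaling, which kept all 8). dpy-14 fell by 2.10 on the log2 scale, from 239 ± 28.5 to 57.8 ± 19.5 RPKM (SD, n = 4), dpy-17 by 2.88, from 227 ± 28.7 to 31.9 ± 11.2 RPKM, and sqt-3 by 2.96. The limma adjusted p of each was 1.4e-09, 8.1e-13 and 4.2e-10 in that order.

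In the same comparison dpy-4 rose from 0.35 ± 0.20 to 11.1 ± 8.56 RPKM (log2 change 3.44, limma adjusted p = 0.00052). dpy-5 rose from 0.54 ± 0.21 to 10.6 ± 7.77 RPKM (3.15, limma adjusted p = 0.00020) and dpy-13 from 0.33 ± 0.26 to 8.91 ± 7.11 RPKM (3.19, limma adjusted p = 0.00054). rol-6 rose by 1.11 (limma adjusted p = 0.0035) and lon-3 by 0.83 (limma adjusted p = 0.026). The log2 changes understate those of genes this low, because 0.5 was added to each value.

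Control 48 h library 1 was the highest of all 24 libraries for 7 of the 10 genes, also with median-of-ratios scaling. In RPKM without that scaling, library 2 was second for 5. Library 1 exceeded library 3 of its group 6.74 times for dpy-4, 4.89 times for dpy-5, 6.59 times for dpy-13 and 44.1 times for bli-1. For dpy-14 and dpy-17 the ratio was 0.88 and 1.04. With libraries 1 and 2 of that group left out, an alternative chosen after seeing the data, the rise of rol-6 (0.67, limma adjusted p = 0.15) and of lon-3 (0.28, limma adjusted p = 0.56) was no longer called, while dpy-4 (2.40), dpy-5 (2.24) and dpy-13 (2.15) stayed called (limma adjusted p up to 0.018). The call for lon-3 was also lost without control 8 h library 3 or control 48 h library 1 or 2 alone (adjusted p from 0.054 to 0.18). The lower levels of dpy-17 and sqt-3 in injured worms at 48 h were not called either without this pair (-0.47 and -0.54, limma adjusted p of 0.14 and 0.16). This left dpy-14 as the 1 gene called there. The controls kept were then libraries 3 and 4, and ribosomal RNA took 46.1% of library 4, so its RPKM read low. With median-of-ratios scaling dpy-17 stood at 35.0 and 38.7 in these controls, against at most 21.3 in injured libraries. For sqt-3 the values were 25.5 and 31.1 against at most 14.1. No fit was run with both that scaling and this pair left out, so these scaled differences were not tested.

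From 48 to 96 h in the controls 0 genes were called higher and 3 lower, sqt-3 (-0.89, limma adjusted p = 0.032), dpy-5 (-1.87, 0.041) and dpy-13 (-2.02, 0.048), beside 11.7% and 1.26% of all features (6.75% and 10.7% with median-of-ratios scaling). None was called without control 48 h libraries 1 and 2. Single libraries decided these calls too, 5 of 24 for sqt-3, 9 for dpy-5 and 18 for dpy-13, with control 48 h library 1 and library 2 among them for each gene (adjusted p up to 0.11, 0.13 and 0.15). For dpy-4 the difference was -1.81 (limma adjusted p = 0.096), and for dpy-14 -0.18 with an interval from -0.64 to 0.27.

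From 8 to 96 h in the controls 3 genes were called lower, beside 26% of all features. The log2 change was -2.28 for dpy-14, -3.13 for dpy-17 and -3.85 for sqt-3 (limma adjusted p of 7.8e-11, 2.8e-14 and 5.2e-13), calls kept under all 32 alternatives. Higher were 2, beside 36.2% of features, namely dpy-4 (1.63, limma adjusted p = 0.05, which before rounding was just below the threshold) and rol-6 (0.78, limma adjusted p = 0.031). Leaving out single libraries ended the call for dpy-4 in 16 of 24 cases and that for rol-6 without control 8 h library 1 or control 96 h library 2 or 3 (adjusted p from 0.082 to 0.13).

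**Figure D3:**
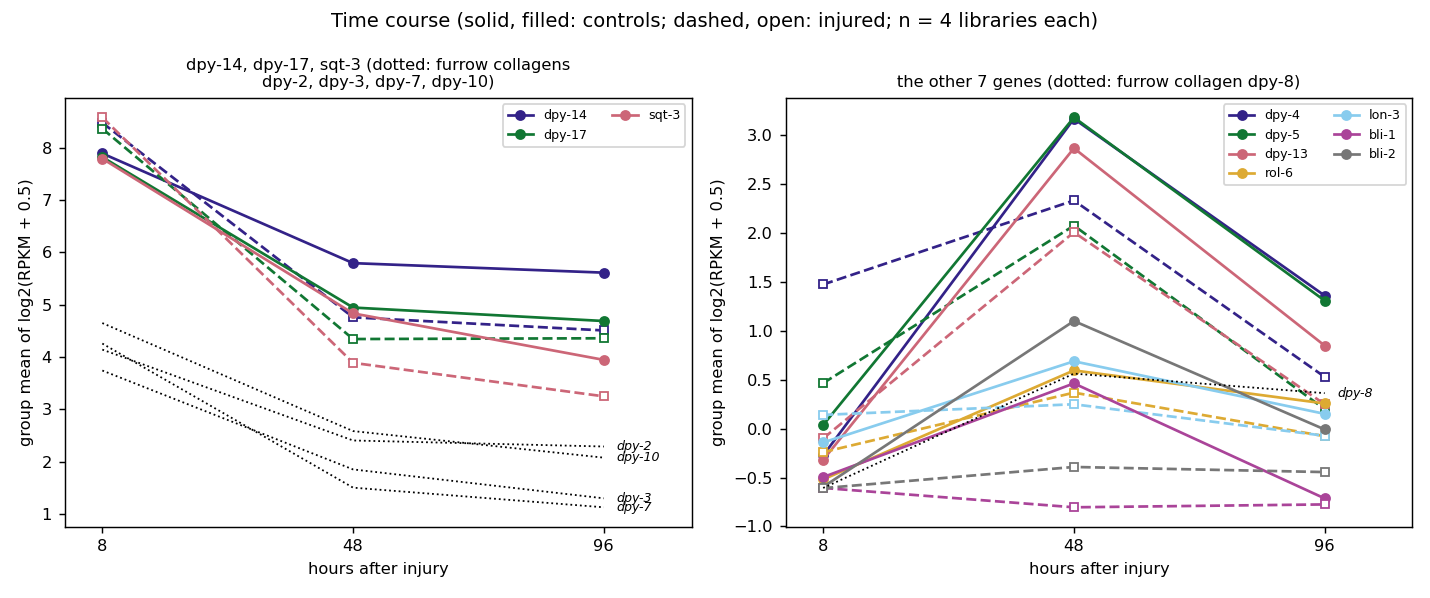
Group mean of log2(RPKM + 0.5), 4 libraries each, against hours after injury, with controls solid and filled and injured worms dashed and open. The left panel has dpy-14, dpy-17 and sqt-3, which drop after 8 h, with 4 furrow collagens dotted (controls). The right panel has the other 7 genes, which peak in the 48 h controls, with the furrow collagen dpy-8 dotted.

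Set beside the furrow collagens, the genes fell on both sides. In the controls from 8 to 48 h, dpy-2, dpy-3, dpy-7 and dpy-10 were called lower by limma (-1.74, -1.89, -2.76 and -2.07), dpy-8 higher (1.17), and dpy-9 was at -0.27 (adjusted p = 0.41). Over all features 30% were called lower there and 18.8% higher. dpy-2, dpy-3, dpy-7 and dpy-10 had group means of 12.9 to 24.6 RPKM in the 8 h controls, when dpy-14, dpy-17 and sqt-3 had means of 223 to 239 RPKM, and dpy-8 was at 0.16 ± 0.10 RPKM (SD, n = 4), among the 7 low genes. At 8 h after injury none of the 6 furrow collagens was called by limma (0 at an unadjusted p below 0.05, and 0 with median-of-ratios scaling). Their differences lay between -0.28 and 0.19 on the log2 scale, against 0.54 to 0.79 for dpy-14, dpy-17 and sqt-3, and the 2 sets were not tested against each other. At 48 h dpy-3 was called lower (-0.86, limma adjusted p = 0.014), as were 4 of the 6 with median-of-ratios scaling, and at 96 h dpy-2 (-0.65, limma adjusted p = 0.023). The shares of all features called lower were 10.2% at 48 h, 28.6% there with that scaling, and 28.4% at 96 h.

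Over the 24 libraries, which share groups and times, the levels of dpy-14, dpy-17 and sqt-3 had pairwise Pearson correlations of 0.976 to 0.982. Their correlations with dpy-2, dpy-3, dpy-7 and dpy-10 were 0.954 to 0.981, and with the other 7 genes -0.476 to 0.124. After subtracting group means the correlations among dpy-14, dpy-17 and sqt-3 were 0.685 to 0.930, and those with the other 7 genes were all positive, at 0.064 to 0.598 (median 0.341). The other 7 genes correlated with one another at 0.412 to 0.959 (median 0.642), the highest being dpy-5 with dpy-13, and at 0.304 to 0.909 after subtracting group means. These are descriptions over libraries that differ in depth and ribosomal RNA, and they say nothing of shared control.

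**Figure D4:**
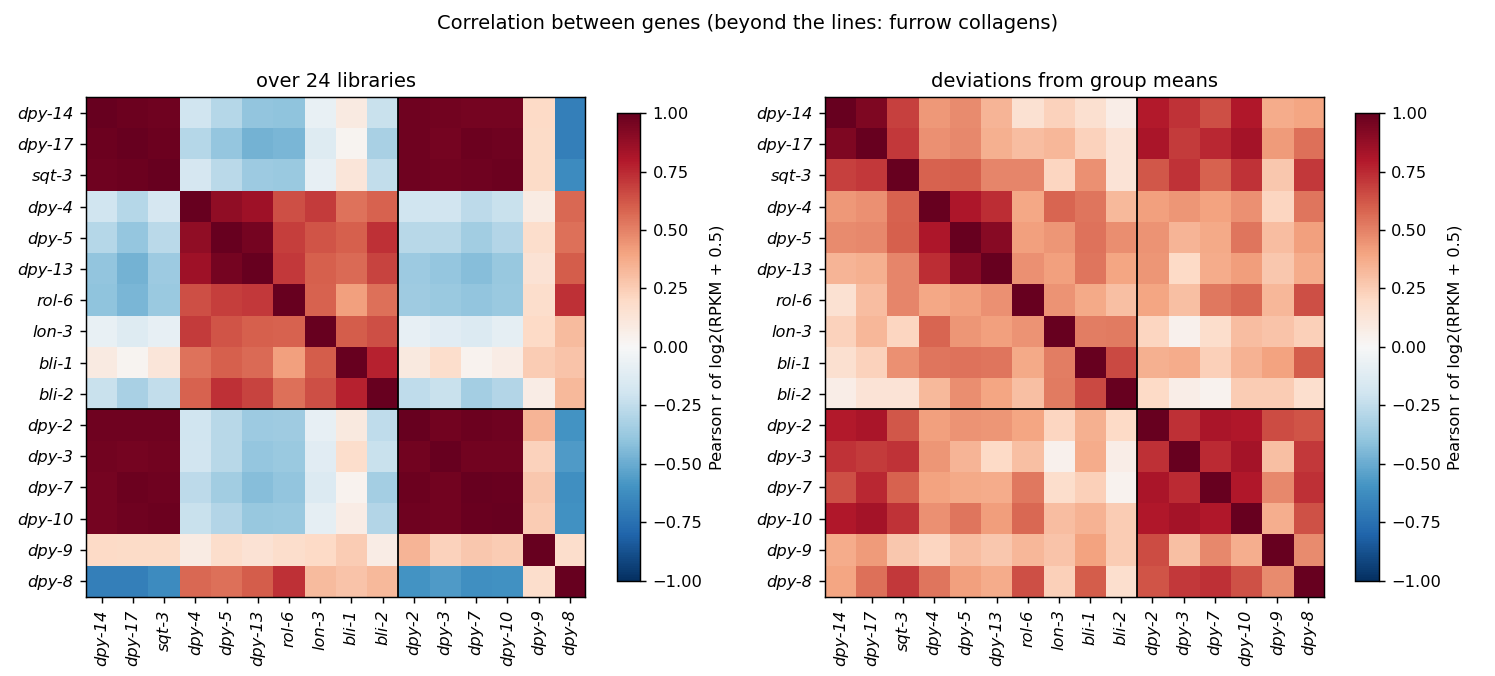
Pearson correlation of log2(RPKM + 0.5) between pairs of genes, over 24 libraries (left) and over deviations from group means (right), with colour from -1 (blue) to 1 (red). Lines part the 10 genes from the 6 furrow collagens. In the left panel dpy-14, dpy-17 and sqt-3 form a block with dpy-2, dpy-3, dpy-7 and dpy-10, and the other 7 genes form a block of their own, whereas in the right panel the correlations between these sets are also positive.

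Among the other cuticle collagens in the table, 164 genes of which 123 were tested, 18 were called higher and 24 lower at 8 h after injury, 3 and 48 at 48 h, and 10 and 30 at 96 h, beside the shares of all features given above. Their median log2 difference was -0.14, -0.53 and -0.05 in that order. With median-of-ratios scaling 1 was higher and 81 were lower at 48 h, with a median of -0.99, beside 30% and 28.6% of all features. At 8 h col-130 was higher by 2.25 and col-179, col-101 and col-95 were lower (-2.96, -2.65 and -1.77; limma adjusted p at most 2.9e-06). In the controls from 8 to 48 h 47 were higher and 36 lower, beside 18.8% and 30% of all features, with col-183 (3.67) and col-50 (3.06) up and col-165 (-4.42) and col-74 (-3.18) down. These genes are many and heterogeneous, and near-identical copies may share reads.

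The enzymes that modify, cut, export and crosslink collagen were matched for 13 of 15 genes, all tested. At 8 h 0 were called higher and 1 lower, bli-5, a protease inhibitor-like gene (-0.91, limma adjusted p = 0.014), when the collagens dpy-14, dpy-17 and sqt-3 were at their highest. The shares of all features were 11% and 11.4%. Scaled by median of ratios, 3 were higher and 2 lower at 8 h, beside 20.8% and 16.7%. At 48 h 1 was higher, bli-4, the convertase (0.65, limma adjusted p = 0.0060), but it was not called with median-of-ratios scaling (0.11), and 2 were lower, dpy-18 (-0.67) and phy-3 (-0.69), both genes of prolyl 4-hydroxylases, where that scaling gave 0 higher and 8 lower. Of all features, 45.8% were called higher and 10.2% lower at 48 h, or 30% and 28.6% with that scaling. At 96 h 0 were higher and 9 lower, beside 32.8% and 28.4% of all features. That scaling gave 1 and 10 there, beside 36.6% and 34%. Among the 9 were dpy-31, the astacin protease that acts on SQT-3 (-1.78), dpy-18 (-1.34), pdi-2, the partner subunit of the hydroxylase (-1.17), and bli-3, the dual oxidase of crosslinking (-1.19), with limma adjusted p at most 3.7e-05. The list's median log2 difference was -1.09 at 96 h, beside 0.07 over all features.

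The DBL-1 pathway is a BMP-like signal that sets body size and acts on cuticle collagen genes. It had 3 of 12 genes called higher and 0 lower at 8 h, beside 11% and 11.4% of all features. The 3 genes were lon-1 (1.82, limma adjusted p = 5.8e-05), a secreted protein that the pathway represses, crm-1 (1.15, 0.00011), a secreted modulator of the pathway, and dbl-1 (0.68, 0.041), the ligand. At 48 h 2 were higher and 0 lower, beside 45.8% and 10.2% of all features. With median-of-ratios scaling 0 were higher and 4 lower there, beside 30% and 28.6%. At 96 h 0 were higher and 5 lower, beside 32.8% and 28.4% of all features (0 and 9 with that scaling, beside 36.6% and 34%). Among the 5 were sma-10 (-1.83), which binds the receptors, the glypican lon-2 (-0.95) and the Smad sma-2 (-0.91). In the controls from 8 to 96 h 10 of the 12 were called higher, beside 36.2% of all features.

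Of the 10 moulting cycle genes, 1 was higher at 8 h (qua-1, 0.94, limma adjusted p = 0.0069) and 0 lower, beside 11% and 11.4% of all features. At 48 h 3 were higher and 3 lower, beside 45.8% and 10.2%, or 1 and 6 with median-of-ratios scaling, beside 30% and 28.6%. At 96 h 2 were higher and 4 lower, beside 32.8% and 28.4%. The nuclear receptor gene nhr-23, which drives moulting cycles, was higher in injured worms at 48 h (1.33) and 96 h (1.43), when mlt-10 was lower (-1.31 and -1.97), as was noah-1, a component of the apical matrix (-0.62 and -1.03). In the controls 4 of the 10 were lower at 48 than at 8 h, beside 30% of all features, namely noah-2 (-1.33), nhr-23 (-1.32), noah-1 (-1.14) and mlt-11 (-0.91).

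Markers of other cells moved with the same comparisons. The shares of all features called higher and lower after injury were 11% and 11.4% at 8 h, 45.8% and 10.2% at 48 h, and 32.8% and 28.4% at 96 h. In the controls 30% of all features were called lower at 48 than at 8 h. The 7 early embryo markers summed to 23.7 to 35.7 RPKM in the 8 h controls and to 4.96 to 10.4 in the 8 h injured libraries. The sum of dpy-14, dpy-17 and sqt-3 at that time was 582 to 786 RPKM in controls and 833 to 1226 in injured worms. Of the 5 embryo markers tested 4 were lower at 8 h, tbx-38 (-2.26), pes-10 (-1.97), tbx-37 (-1.96) and ceh-51 (-1.24), and all 5 were lower in controls at 48 than at 8 h. The 6 germline markers summed to 634 to 948 RPKM in 8 h controls, 156 to 270 in 48 h controls and 556 to 1126 in 48 h injured worms, and all 6 were called higher in injured worms at 48 and at 96 h and lower in controls at 48 than at 8 h. Of the 8 epidermis markers 1 was called higher at 8 h, ifb-1 (1.19), and the list summed to 293 to 332 RPKM in controls and 287 to 807 in injured libraries. Body wall muscle had 2 of 5 markers higher at 8 h and neurons 3 of 6. At 96 h the epidermis markers summed to 337 to 355 RPKM in controls and to 232 to 283 in injured worms. Of these 8 markers 1 was called higher and 1 lower. With median-of-ratios scaling 1 was higher and 5 lower, beside 36.6% and 34% of all features. At that time 2 of 3 adult epidermis markers (median log2 difference -0.82) and 4 of 5 intestine markers (median -1.60) were called lower, and 0 of either were higher. The intestine markers summed to 501 to 598 RPKM in controls and 238 to 441 in injured worms, and those of the adult epidermis to 49.2 to 60.9 and 30.3 to 64.4. The part of any of these in the values of the collagen genes was not tested.

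**Figure D5:**
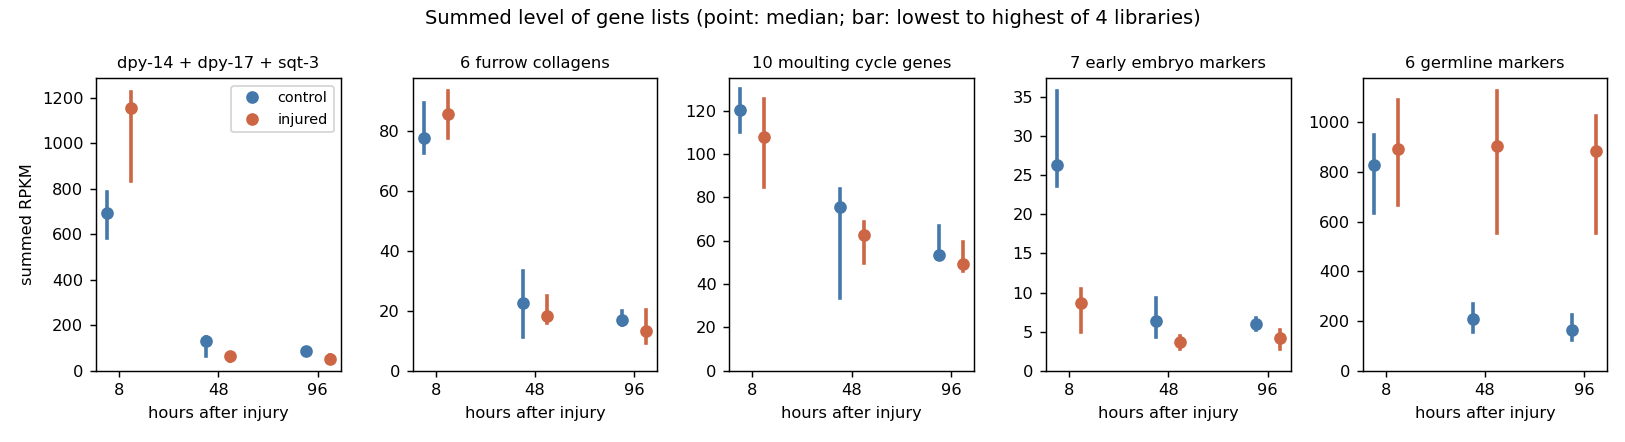
Summed RPKM of 5 gene lists against hours after injury, with the point at the median and the bar from the lowest to the highest of 4 libraries, controls blue and injured orange. The sum of dpy-14, dpy-17 and sqt-3 and that of the furrow collagens, moulting cycle genes and early embryo markers are in the controls highest at 8 h, and the germline sum falls after 8 h in the controls.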

How the data were processed

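Poly(A) RNA was sequenced in paired-end reads of 150 bp, and the authors used CLC Genomics Workbench and the assembly ce11 to make the deposited RPKM values, with no further scaling between libraries. The annotation release and strand setting are not given in the sources used here. The deposited p-value and FDR columns (6, injured against control) were not used. Labels name strain N2, whereas figure legends of the study name CF512, and the labels were followed. The 10 genes and all gene lists were chosen with earlier results of these data known. From each other list, the genes named are among the 4 with the smallest adjusted p in a comparison, and dph-2 and F23H12.13 are named for their overlap. RPKM values were fitted with limma 3.58.1 in R 4.3.3 on log2(RPKM + 0.5), with 1 mean for each of 6 groups, trend and robust settings, 9 comparisons, and Benjamini-Hochberg adjustment over the 14813 features at or above 1 RPKM in at least 4 libraries. The code was tested on simulated data. Exact permutation tests used scipy 1.17.1. Depth was the total at which low values of short non-coding genes came out as whole reads within 0.1 reads. Precision was limited by depth for low genes. Intervals from reads would cover counting error only. Coordinates are of WBcel235, the same assembly as ce11. No pair of columns was identical (0 pairs). Alternatives were pseudocounts of 0.1 and 1, no filter, median-of-ratios scaling, rescaling without ribosomal RNA, array quality weights, fits of only the groups compared, and leaving out libraries.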

Additional observations from a re-analysis of the deposited data

Results flagged for a closer look

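In 4 of 60 groups of 4 libraries, 1 library lay far from its group, judged on log2(RPKM + 0.5) by the gap to the nearest of the others as a share of the group's range, against a critical value that chance passes in about 1 in 20 groups. In these 4 groups the share was 0.889 to 0.925. dpy-5 was at 1.38 RPKM in injured 48 h library 2 when the others held 4.76 to 5.22, and dpy-13 was at 1.72 RPKM in injured 8 h library 3 when the others held 0.17 to 0.26. rol-6 was at 0.04 RPKM in control 8 h library 1, against 0.25 to 0.28, and bli-1 at 0.24 RPKM in injured 96 h library 2, against 0.03 to 0.05, both from few reads.

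The injury effect differed between times, in a limma interaction, for 4 genes. Between 8 and 48 h the difference was -2.58 for dpy-4, -1.62 for dpy-14, -1.15 for dpy-17 and -1.73 for sqt-3 on the log2 scale. Between 8 and 96 h it was -2.58 for dpy-4, -1.69 for dpy-14, -0.87 for dpy-17 and -1.49 for sqt-3. Injured worms were above controls on average at the first time and below at the later ones for each of these genes.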

How the results depend on the processing

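Of 31 called results for single genes, 16 stayed called under every alternative run and 15 were lost under at least 1, while 28 uncalled results were called under at least 1. The 31 include the exact test of bli-2 at 48 h, whose p was not adjusted. It is among the 15, because it cannot pass once any 1 of its libraries is left out. Of the uncalled results, in part the same ones, 16 changed sign somewhere. The injury effect of rol-6 at 96 against 48 h, -0.11 and uncalled as reported, was 1.17 and called with array quality weights, and was uncalled with either sign under the other alternatives, for example 0.23 with median-of-ratios scaling. The number of genes called at 8 h after injury was 1. It became 0 with no filter and 4 with median-of-ratios scaling, rescaling without ribosomal RNA, array quality weights, a fit of the 2 groups alone, or without the 4 libraries rich in ribosomal RNA. At 48 h it was 3, and became 6 with median-of-ratios scaling, 8 with array quality weights, 5 in the fit of 2 groups and 1 without control 48 h libraries 1 and 2. At 96 h it was 2, and became 1 with no filter and 6 with array quality weights. For controls at 96 against 48 h it was 3, and became 1 with a pseudocount of 0.1, 6 with median-of-ratios scaling, 7 with array quality weights and 0 without control 48 h libraries 1 and 2. The injury effect changed from 8 to 48 h for 4 genes, or 7 with array quality weights, and from 48 to 96 h for 0, or 1 with median-of-ratios scaling and 3 with array quality weights. Apart from fewer genes or samples tested, the cause was not tested. Leaving out 1 library in turn gave 0 to 4 genes called at 8 h, 2 to 4 at 48 h and 1 to 3 at 96 h after injury. In the controls it gave 7 to 8 for 48 against 8 h, 0 to 4 for 96 against 48 h and 3 to 6 for 96 against 8 h. For the change of the injury effect it gave 3 to 4 from 8 to 48 h and 2 to 4 from 8 to 96 h. Without any 1 of the 8 libraries the exact test of bli-2 at 48 h cannot go below 0.0571. No paired analysis was possible because the columns carry no replicate number, and no count of promoter motifs was run. Depth limits dpy-13, rol-6, lon-3, bli-1 and bli-2, whose median library held 6.18 to 16.0 reads.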
